A study of Homo sapiens with 2 samples.

Results

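The regions described here are the broad open regions of B2B cells, peaks at least 1000 bp wide in the ATAC-seq list of replicate 2 that share at least 1 bp with a peak of replicate 1. They number 927 of the 26032 peaks of replicate 2 that overlapped a peak of replicate 1, which is 3.56%, and of the 36109 peaks of replicate 2 on chromosomes 1 to 22 and X. Each of the 927 peaks of this width in replicate 2 had a counterpart in replicate 1, so the overlap removed none. The width in replicate 2 chose the regions, and it is given below as a description only. ATAC-seq marks accessible DNA by the adapters that the Tn5 transposase inserts into it. B2B is BEAS-2B, a bronchial epithelial line immortalized with SV40 that is not cancerous, and the cells were wild type and untreated. Both samples belong to this 1 group, and the comparisons below are between regions, with no test between conditions. The study calls such samples biological replicates, and whether they came from separate cultures is not given in the sources used here.

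A promoter that is rich in CpG is usually kept free of DNA methylation, and the nucleosomes around its transcription start site (TSS) are displaced or mobile. Transcription from such a promoter often starts at many positions and in both directions, so the accessible stretch can reach well past a single nucleosome. Enhancers away from promoters are as a rule narrower, and in epithelial and mesenchymal cells many hold a site for AP-1, the dimer of Jun and Fos proteins.

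The sequences at the summits of the widest regions are shown first, because they show the kinds of sequence that such regions hold. Each line gives 201 bases of the plus strand of hg38, centred on the summit of replicate 2, with every CpG in capitals. The first 4 lines come from 4 of the 5 widest regions over a single protein-coding TSS. The windows lie at chr5:98929517-98929717 for CHD1, chr3:120095033-120095233 for GSK3B, chr9:120876492-120876692 for PHF19 and chr4:102827870-102828070 for UBE2D3.
CHD1: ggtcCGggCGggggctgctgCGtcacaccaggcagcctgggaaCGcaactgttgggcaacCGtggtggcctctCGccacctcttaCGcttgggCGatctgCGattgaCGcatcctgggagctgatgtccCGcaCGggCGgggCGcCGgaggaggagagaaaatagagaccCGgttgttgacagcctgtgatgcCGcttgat
GSK3B: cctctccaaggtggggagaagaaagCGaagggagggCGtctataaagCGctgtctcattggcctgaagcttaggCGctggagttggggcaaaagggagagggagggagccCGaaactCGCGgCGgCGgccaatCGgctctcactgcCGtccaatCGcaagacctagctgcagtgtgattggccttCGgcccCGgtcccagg
PHF19: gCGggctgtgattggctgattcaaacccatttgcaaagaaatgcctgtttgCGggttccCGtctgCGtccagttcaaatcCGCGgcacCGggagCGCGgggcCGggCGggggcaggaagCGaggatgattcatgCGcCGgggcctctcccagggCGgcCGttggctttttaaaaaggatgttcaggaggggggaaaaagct
UBE2D3: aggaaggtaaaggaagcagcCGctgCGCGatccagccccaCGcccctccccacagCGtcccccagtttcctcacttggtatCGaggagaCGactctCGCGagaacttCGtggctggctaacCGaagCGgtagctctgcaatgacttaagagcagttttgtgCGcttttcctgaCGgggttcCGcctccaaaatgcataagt
These windows hold 17, 14, 16 and 15 CpG, in that order. The windows of CHD1 and PHF19 each hold 2 GC boxes, the words GGGCGG or CCGCCC to which SP and KLF factors bind, and the other two hold none. None of the 4 windows holds the AP-1 word TGACTCA or TGAGTCA.

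The next 3 lines come from wide regions that cover no annotated gene start, at chr21:6369897-6370097, chr6:21587407-21587607 and chr5:1328047-1328247.
chromosome 21 short arm: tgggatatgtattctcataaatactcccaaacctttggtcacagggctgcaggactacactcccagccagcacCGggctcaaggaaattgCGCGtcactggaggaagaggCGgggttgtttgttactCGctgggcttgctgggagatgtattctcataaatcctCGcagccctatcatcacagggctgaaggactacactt
near SOX4: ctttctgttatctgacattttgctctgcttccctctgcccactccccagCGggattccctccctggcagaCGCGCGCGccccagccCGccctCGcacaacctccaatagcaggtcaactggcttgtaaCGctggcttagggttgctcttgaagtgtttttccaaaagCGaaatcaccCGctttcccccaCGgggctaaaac
in CLPTM1L: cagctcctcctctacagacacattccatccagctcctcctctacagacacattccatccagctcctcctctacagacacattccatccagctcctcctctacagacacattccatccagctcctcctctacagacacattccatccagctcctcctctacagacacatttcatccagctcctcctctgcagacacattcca
These windows hold 6, 11 and 0 CpG, in that order. The last is made of a tandem repeat and its region is described further below.

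The widths were close to the limit. In replicate 2 the median width of the 927 regions was 1115 bp, with quartiles of 1049 and 1228 bp and a range from 1000 to 7223 bp. A width above 1300 bp was seen in 136 regions, above 1500 bp in 32 and above 2000 bp in 2. Together the regions covered 1079378 bases, which is 9.52% of the bases in shared peaks. The 3 regions just inside the limit, each 1000 bp wide, lay over TNFAIP3, an inhibitor of NF-kB signalling, PCNA, the sliding clamp of DNA replication, and MRPS9, a mitochondrial ribosomal protein. The 3 just outside it, each 999 bp wide, lay at chr5:69710106-69711104 and over MSRA and PLK4.

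In replicate 1, whose widths the rule did not use, the regions were also wide. The widest overlapping peak of replicate 1 had a median width of 1010 bp, with quartiles of 811 and 1145 bp and a range from 182 to 4334 bp, beside a median of 309 bp over all shared peaks. It reached 1000 bp in 478 of the 927 regions, or 51.6% (95% Clopper-Pearson interval 48.3 to 54.8), against 3.75% of all shared peaks. Among the 1638 shared peaks from 800 bp to below 1000 bp in replicate 2 the same share was 11.1% (9.63 to 12.7), so the 1000 bp limit cut through a continuous range. A counterpart of at least 800 bp was present for 75.7% of the regions. Intervals here and below cover counting error only, and neighbouring peaks are not independent replicates.

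**Figure D1:**
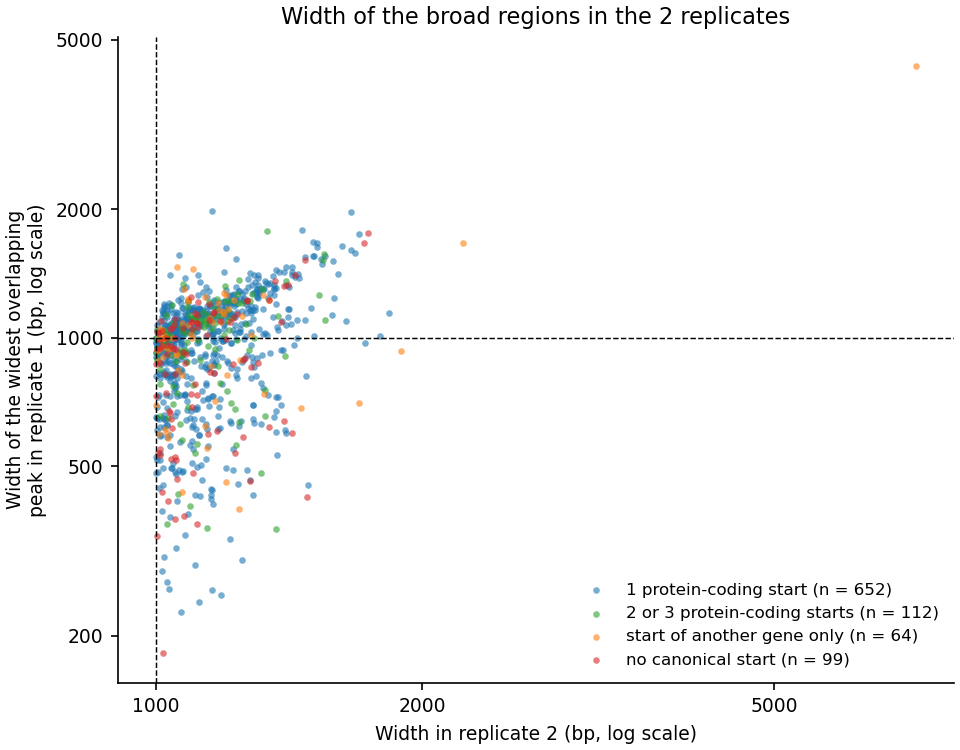
Each point is 1 of the 927 broad regions, placed by its width in replicate 2 (horizontal, bp, log scale) and the width of the widest overlapping peak in replicate 1 (vertical, bp, log scale), coloured by the gene starts it covers, with dashed lines at 1000 bp. Points above the horizontal line are the 478 regions that reached 1000 bp in replicate 1 too, and the point at the upper right is the region of 7223 bp.

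The replicate 1 peaks covered a median of 91.3% of each region. The largest replicate 1 width after that of the region of 7223 bp was 1984 bp, over RAP1GDS1, a guanine nucleotide exchange factor whose region spanned 1158 bp in replicate 2. MBOAT7, an acyltransferase of phosphatidylinositol, followed with 1977 bp in replicate 1 and 1662 bp in replicate 2. At the other end, the counterpart was only 182 bp wide at chr19:49442950-49443969, 228 bp at BAZ1B and 240 bp at PSMG4. At BAZ1B and at the chromosome 19 region the list of replicate 1 held more than 1 separate peak inside the same stretch. Across the 927 regions the widths in both replicates had a Spearman correlation of 0.37, over a range that the width limit cuts short.

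Each region had 1 summit in the list of replicate 2, since neither list held peaks of equal coordinates. The number of separate replicate 1 peaks inside a region was therefore taken as the second view of its inner structure. It was 1 for 665 regions, 2 for 234, 3 for 26 and 4 for 2. More than 1 peak was thus found in 28.3% of the regions (25.4 to 31.3), against 4.3% of all shared peaks, and a wider peak has more room for several. The summit of replicate 2 lay between 25% and 75% of the width in 68.1% of the regions (65.0 to 71.1) and in 88.8% of the narrower shared peaks. The summits of the replicates lay a median of 46 bp apart in the broad regions and 34 bp apart in the narrower peaks.

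The regions stood high in both lists, and height and width of a peak are not independent measures. The deposited fold enrichment, the fragments at the summit over the local background with 1 added to each, had a median of 10.9 in replicate 1 and 10.9 in replicate 2. Over all shared peaks the medians were 6.47 and 7.93. Shared peaks of 750 bp to below 1000 bp also had a median of 10.9 in replicate 1, so this fold enrichment was not particular to the broad regions. The fragments at the summit, solved from the fold enrichment and the p-value, had medians of 77 in replicate 1 and 71 in replicate 2. They were 38 and 37 over all shared peaks, and 67 and 64 in those of 750 bp to below 1000 bp. The lowest summit in either whole list had 16 and 13 fragments, so a stretch between peaks may be accessible below that depth.

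Within the broad regions the measures of height went different ways with width. The median fold enrichment of replicate 1 was 11.2 from 1000 bp to below 1250 bp, 10.3 from 1250 bp to below 1500 bp and 8.29 at 1500 bp or more. The median fragments at the summit in the same classes were 76, 79 and 92 in replicate 1 and 71, 69 and 87 in replicate 2. The highest fold enrichment of replicate 1 belonged to MRPS9, at 26.5 in replicate 1 and 19.9 in replicate 2, in a region of 1000 bp. LRIF1, an interactor of nuclear receptors, had 22.5 and 22.1, and FH, the fumarate hydratase of the citric acid cycle, had 21.0 and 16.8. The lowest were ATG16L2 at 3.98 and 7.39, ORAI1, the pore of the store-operated calcium channel, at 4.50 and 9.06, and NOG, the BMP antagonist noggin, at 4.60 and 4.67. ATG16L2 and ORAI1 thus differed between the replicates by more than NOG did.

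Most broad regions were promoters. The canonical TSS of at least 1 protein-coding gene lay inside 764 of the 927 regions, or 82.4% (79.8 to 84.8), against 32.2% of all shared peaks. A single such TSS was covered by 652 regions and more than 1 by 112, which is 12.1% (10.1 to 14.4). More than 1 was also covered by 9.97% of the shared peaks of 750 bp to below 1000 bp (8.75 to 11.3). The start of a gene of another type only was covered by 64 regions, the start of a further annotated transcript only by 37, and no annotated start by 62. A wider peak is more likely to include a given point, so the summit was also placed on its own. It lay within 500 bp of a protein-coding TSS in 75.9% of the regions (73.1 to 78.7) and in 36.4% of all shared peaks, and with the summits of replicate 1 the shares were 74.9% and 36.9%.

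The share over a TSS rose with width up to 1000 bp, and beyond it the classes could not be told apart. It was 8.30% for shared peaks under 250 bp, 23.4% from 250 bp to below 500 bp, 54.2% from 500 bp to below 750 bp and 77.2% at 750 bp to below 1000 bp. In the broad regions it was 81.8% from 1000 bp to below 1250 bp, 85.1% from 1250 bp to below 1500 bp and 81.2% at 1500 bp or more, with intervals that overlapped. The AP-1 word within 100 bp of the summit went the other way. It was found in 24.7% of the narrowest peaks and in 4.49% of those of 750 bp to below 1000 bp, and in 16, 7 and 0 of the broad regions of the 3 width classes. Of all 927 regions 23 held it, or 2.48% (1.58 to 3.70), against 19.8% of all shared peaks. Over a protein-coding TSS the share was low whatever the width, at 1.44% of the broad regions (0.72 to 2.56) and 2.06% of the narrower peaks (1.76 to 2.41).

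**Figure D2:**
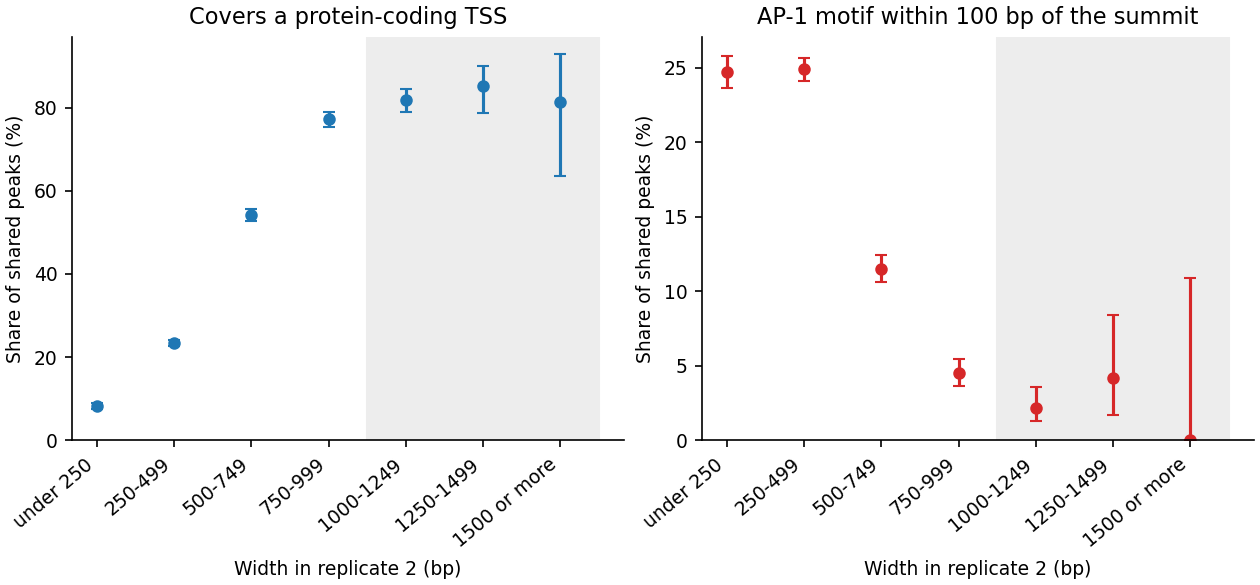
The left panel plots the share of shared peaks that cover a protein-coding TSS and the right panel the share with the AP-1 word within 100 bp of the summit (vertical, percent), for 7 classes of width in replicate 2 (horizontal, bp), with 95% Clopper-Pearson intervals and the broad regions shaded. The first share climbs from 8.30% to above 81% while the second falls from 24.7% to 2.2% in the class from 1000 bp to below 1250 bp.

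On the direction of transcription, the broad regions differed from narrower promoter peaks mainly in their reach into the gene. The 652 regions with a single protein-coding TSS extended a median of 520 bp upstream and 624 bp downstream of it. The 6887 narrower peaks of the same kind reached 275 bp upstream and 204 bp downstream. The downstream side was the longer one in 58.4% of the broad regions (54.5 to 62.2) and in 39.8% of the narrower peaks. The summit still lay upstream, at a median of 83 bp before the TSS in broad regions and 64 bp in narrower peaks. It was within 200 bp of the TSS in 61.8% of the broad regions and 86.8% of the narrower peaks.

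Inside the genes, the broad regions ran over exon 1 and into the first part of the introns. The whole of exon 1 was included in 78.7% of these regions, against 52.3% of the narrower peaks, a share that width itself raises. Of their bases 47.5% lay outside the gene, 24.1% in exon 1, 27.7% in introns and 0.71% in later exons. In the narrower peaks 17.0% of the bases were intronic and 28.3% in exon 1.

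**Figure D3:**
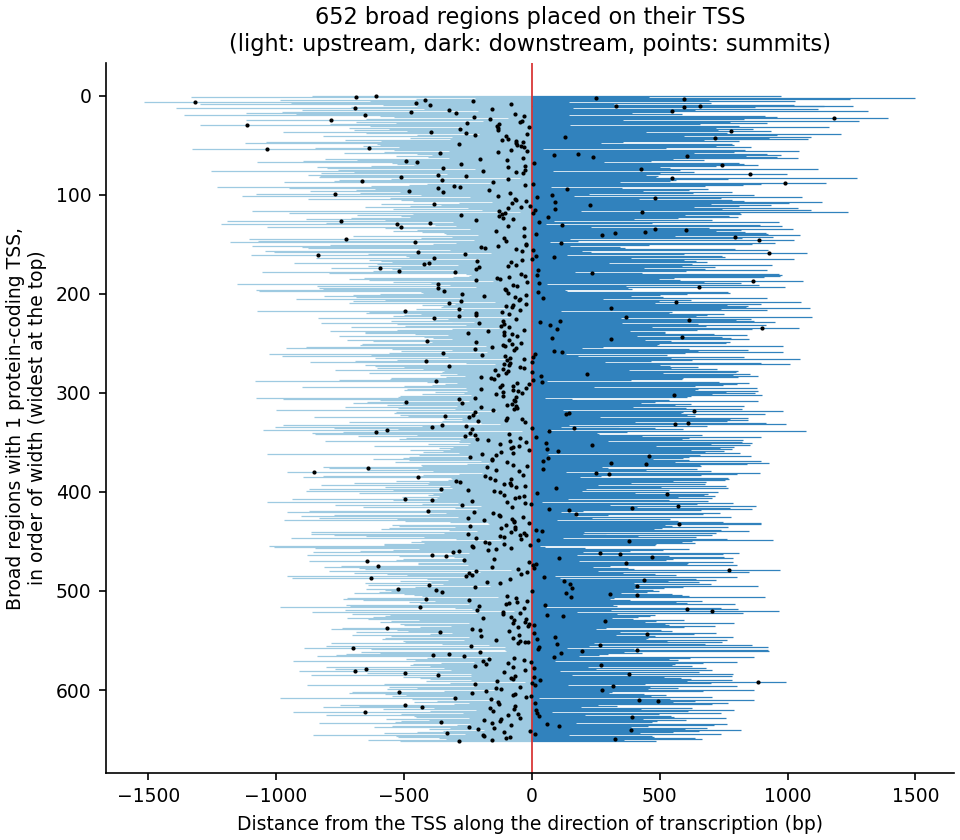
Each horizontal line is 1 of the 652 broad regions with a single protein-coding TSS, in order of width with the widest at the top, placed by the distance from the TSS along the direction of transcription (horizontal, bp), light upstream and dark downstream, with a point at the summit of replicate 2. Most points lie just left of the TSS, while the lines reach a median of 624 bp to the right of it.

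Of the widest promoter regions, the one over CHD1, a chromatin remodeller that binds trimethylated lysine 4 of histone H3, lay at chr5:98928032-98929866. Its width was 1835 bp in replicate 2 and 1143 bp in replicate 1, with fold enrichments of 8.52 and 11.3, and its summit was 610 bp upstream of the TSS. The region of GSK3B, the kinase that marks beta-catenin for degradation, lay at chr3:120093988-120095781 and spanned 1794 and 1008 bp, with fold enrichments of 11.3 and 10.7. It reached 1334 bp upstream and 459 bp downstream of the TSS and so ended inside exon 1. Both regions were over 1000 bp wide in either list, and each held 2 separate peaks of replicate 1.

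LONRF1 had a region of the opposite shape. Its 1723 bp reached 1499 bp downstream of the TSS and 223 bp upstream, and the widest replicate 1 peak in it was 974 bp. PHF19, a Polycomb-associated protein, had 1243 bp of its 1697 bp downstream, 1146 of them intronic, and the summit shown above lay 596 bp inside the gene. UBE2D3, an E2 ubiquitin-conjugating enzyme, had 983 bp upstream and 694 bp downstream.

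The 112 regions with more than 1 protein-coding TSS were mostly shared by divergent gene pairs, which are transcribed away from each other from a common stretch. Of the 107 regions with 2 such TSSs, 89 held a head-to-head pair, 15 a pair on the same strand and 3 a pair whose transcripts overlap at their starts. The TSSs of the head-to-head pairs lay a median of 340 bp apart, with quartiles of 203 and 530 bp. The widest of these regions was 1552 bp and covered PPAT and PAICS, 2 enzymes of purine synthesis whose starts are 645 bp apart. The region over ZRANB3 and R3HDM1 was 1544 bp wide, with a distance of 266 bp, and that over C17orf67 and DGKE was 1531 bp wide, with a distance of 231 bp.

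Starts of 3 protein-coding genes were covered by 5 regions. One lay over AK6, TAF9 and RAD17 at chr5:69369126-69370226, with a fold enrichment of 11.8 in replicate 2 and 10.2 in replicate 1. TAF9 is a subunit of TFIID and RAD17 loads the checkpoint clamp at damaged DNA. The other 4 each included a gene known only by its identifier, next to IFRD1, to AZI2 and ZCWPW2, to WDR27 and C6orf120, and to PSME2 and RNF31. The widths of these 5 regions ran from 1060 to 1241 bp in replicate 2 and from 430 to 1210 bp in replicate 1.

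In all, 881 of the 19970 protein-coding genes had their canonical TSS in a broad region, which is 4.41%, or 9.52% of the 9257 genes with any shared peak over the TSS. Their promoters were rich in CpG and the genes were long. Within 500 bp of the TSS they had a median of 95 CpG, against 79 for the 8376 genes with a narrower peak and 33 for the 9921 without a peak. The median gene length was 54.7 kb, against 37.8 kb and 17.9 kb. An lncRNA started within 500 bp on the opposite strand for 21.9% of the genes in broad regions (19.2 to 24.8), for 15.1% of those with a narrower peak and for 5.29% of those without a peak. For an opposite protein-coding TSS the shares were 16.9%, 13.7% and 2.82%.

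Among the genes with a shared peak over the TSS, the share in broad regions rose with each quintile of CpG number. It went from 2.54% in the quintile with the fewest CpG through 5.78%, 10.4% and 13.2% to 15.7% in the quintile with the most. With gene length it rose from 6.53% in the shortest quintile to 13.6% in the longest, a smaller range.

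**Figure D4:**
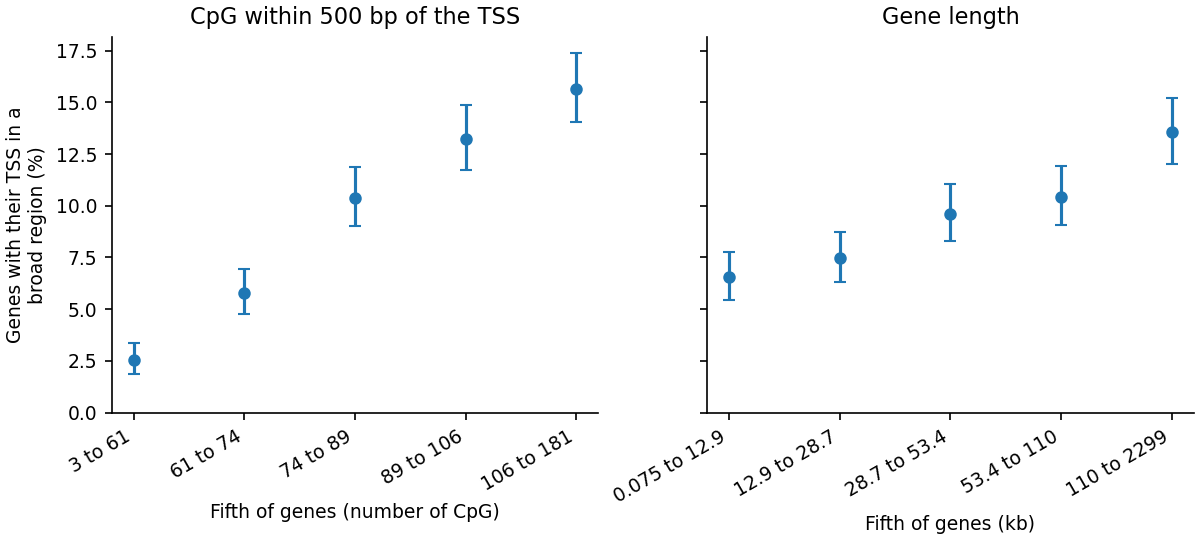
Points give the share of protein-coding genes with a shared TSS peak whose TSS lay in a broad region (vertical, percent, with 95% Clopper-Pearson intervals), in 5 equal groups by the number of CpG within 500 bp of the TSS (left) and of gene length in kb (right). The share rises from 2.54% to 15.7% across the CpG quintiles and from 6.53% to 13.6% across the length quintiles.

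The CpG observed to expected ratio, which is near 1 where CpG is not depleted, had a median of 0.83 in the broad regions and 0.58 over all shared peaks, and it was at least 0.6 in 94.6% and 49.3% of them. Inside the peaks, however, broad regions over a TSS were no richer than narrower peaks over a protein-coding TSS, with medians of 0.84 and 0.85. Their GC contents were 68.8% and 68.2%. Their median widths were 1120 and 544 bp, so what grew with width was the stretch over which this composition held. In the equal window of 500 bp to either side of the TSS, genes in broad regions were richer than genes with a narrower peak. The medians there were 95 and 79 CpG, and GC contents of 67.9% and 63.8%. A broad region held a median of 109 CpG.

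Broad promoters held the GC box about as often as narrower ones and the ETS word less often. Each word was searched on both strands within 100 bp of the summit, and no word contains another. A GC box was found in 75.7% of the broad regions over a TSS and in 71.8% of the narrower peaks over a TSS, against 39.4% of all shared peaks. The CCAAT box, CCAAT or ATTGG, was found in 30.2%, 33.6% and 25.6%. The ETS word, CCGGAAG or CTTCCGG, was found in 9.82% of the broad regions over a TSS (7.80 to 12.2) and in 16.8% of the narrower ones (16.0 to 17.7), against 7.60% of all shared peaks. A match is a description of letters, not of binding.

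The difference in ETS words was also seen between peaks of like height. Among TSS peaks with 50 to 99 fragments at the summit in replicate 1, a range chosen after the data were seen, 8.62% of 383 broad regions (6.01 to 11.9) and 18.3% of 2711 narrower peaks held it. In the same range the CCAAT box was found in 21.7% of the broad regions (17.6 to 26.1) and in 38.5% of the narrower peaks, and the GC box in 77.0% and 74.0%. The summits were on average farther from the TSS in broad regions, as given above, and the part of that distance in these shares was not tested.

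Gene lists were chosen with earlier results of these data known, and their counts stand beside the 4.41% of all protein-coding genes. Of the genes of TGF-beta signalling, which drives growth arrest and mesenchymal change in epithelial cells, 4 of 14 had their TSS in a broad region, 7 in a narrower shared peak, 1 in a peak of replicate 2 only and 2 in none. These 4 genes are 28.6% of the list and 36.4% of its genes with a shared peak over the TSS. Over all protein-coding genes the same shares were 4.41% and 9.52%, and the difference was not tested. The 4 were the ligand TGFB2, the type I receptor TGFBR1, the signal transducer SMAD2 and the SMAD repressor SKIL. The region of TGFB2 was 1084 bp wide in replicate 2 and 1117 bp wide in replicate 1, with fold enrichments of 8.73 and 7.47. TGFBR1 had 1225 and 1127 bp, with 12.9 and 13.5. SMAD2 had 1303 and 899 bp, and SKIL had 1423 and 1076 bp, so that 3 of the 4 reached 1000 bp in both replicates.

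Markers of cell type were looked up to check the label of a bronchial epithelial line. None of the 12 epithelial markers, CDH1, EPCAM and KRT5 among them, had a shared peak over the canonical TSS, and none of the 8 endothelial markers did either. Of all 19970 protein-coding genes, 9921 had no peak over it. The label is thus not borne out at these promoters, and absence from a peak list does not settle the cell type. Of the 12 mesenchymal markers 1 lay in a broad region, 3 in a narrower peak and 8 in none. The broad one was CDH2, N-cadherin, 1235 bp wide in replicate 2 and 847 bp wide in replicate 1, with fold enrichments of 6.05 and 7.23. Of the 8 leukocyte markers 1 had a narrower peak and 7 none. Of 6 EMT transcription factors only TWIST1 was broad, with 1592 and 1241 bp and fold enrichments of 7.51 and 7.64, and its region ran 1141 bp into the gene, over the whole of the first exon.

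The AP-1 subunits had no broad region. Of the 7 genes, 4 had a narrower peak over the canonical TSS and FOS, FOSB and JUNB had none. Of all 19970 protein-coding genes, 9921 had none. Of 21 immediate-early genes EGR1, a zinc finger factor induced by growth signals, was broad, which is 4.76%, and 16 had a narrower peak. Its region had 1072 bp in replicate 2 and 1301 bp in replicate 1. Of 12 Hippo pathway genes WWTR1, which encodes the YAP paralogue TAZ, was broad with 1113 and 1035 bp. None of 21 cyclin and CDK genes of the cell cycle list was broad, and 18 had a narrower peak. With 4.41% of all protein-coding genes broad, and 9.52% of those with a shared peak over the TSS, lists of this size would hold few or none. These counts were not tested.

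Among genes of transcription, CDK9, the kinase that releases paused RNA polymerase II, was the single broad one of 18, with 1640 bp in replicate 2, 1095 bp in replicate 1 and low fold enrichments of 7.11 and 5.02. HDAC2, a histone deacetylase, was the single broad one of 28 chromatin regulators, with 1273 and 1177 bp. HSP90B1, the HSP90 chaperone of the endoplasmic reticulum, was the single broad one of 17 heat shock genes, with 1072 and 835 bp. In the order given, these are 5.56%, 3.57% and 5.88% of the lists, near the 4.41% of all protein-coding genes. Of the genes with a shared peak over the TSS they are 8.33%, 8.33% and 6.25%, beside 9.52%. Of the 28 chromatin regulators 13 had no peak there.

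Of the 612 matched oncogenes that the study lists, 39 were in broad regions. That is 6.37% of them and 10.9% of those with a shared peak over the TSS, beside 4.41% and 9.52% for all protein-coding genes. The 8 widest of these regions covered TRIM24, PIK3R1, PIK3CA, HOOK3 together with RNF170, NRG1, SMAD2, PRKAR1A and RBM15. PIK3CA and PIK3R1 encode the catalytic and a regulatory subunit of PI3-kinase, and their regions spanned 1390 and 1444 bp in replicate 2 and 1094 and 1102 bp in replicate 1. TRIM24, a chromatin reader, had 1498 bp and 1174 bp. NRG1, the neuregulin ligand of ERBB receptors, had 1329 bp and 1357 bp, with its summit 855 bp downstream of the canonical TSS. The region over HOOK3 and RNF170 held 3 peaks of replicate 1, the widest of 356 bp.

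Families were also defined by their symbols after the data were seen, and their counts stand beside the same 4.41% of all protein-coding genes. None of the 84 cytosolic ribosomal protein genes was broad, although 49 had a narrower shared peak over the TSS. None of the 39 HOX genes was broad, and 1 had a narrower peak. Of 515 ZNF genes 18 were broad, which is 3.50%, and 284 had a narrower peak. Of 69 replication-dependent histone genes H2AC15, H2BC15 and H3C15 were broad, which is 4.35%, and 42 had a narrower peak. The shares of the ZNF and histone genes lay near the 4.41% when genes without a peak were counted too. Restricted to genes whose TSS lay in a shared peak, the share was lower, at 5.96% for ZNF and 6.67% for histone genes. For protein-coding genes as a whole the restricted share was 9.52%. These differences were not tested, and the histone share rests on 3 genes.

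Of the 163 regions without a protein-coding TSS, 64 covered the start of another gene. An lncRNA start was found in 50 of the 64, a small nuclear RNA in 11, a miRNA in 5 and an unprocessed pseudogene that is transcribed in 5, and a region can hold several of these. The widest after the region of 7223 bp was chr9:70418855-70421076, 2222 bp wide in replicate 2 and 1666 bp wide in replicate 1, with fold enrichments of 5.95 and 6.76. It covered the start of the lncRNA ENSG00000289159, and the nearest protein-coding TSS was that of KLF9, 4198 bp away. An lncRNA start was also found in 220 of the 764 regions with a protein-coding TSS, or 28.8% (25.6 to 32.1), against 15.9% of all shared peaks over such a TSS. Width itself raises this share, since the median widths of these 2 sets were 1120 and 580 bp.

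Genes of U1 small nuclear RNA, the RNA that recognizes the 5′ splice site, were found in 10 of these 64 regions. Of the 31 annotated genes named RNU1 or RNVU1, 18 had a shared peak over the start and 9 lay in broad regions, and a region over the pseudogene RNU1-27P made 10. The 9 genes were RNU1-1, RNU1-2, RNU1-3 and RNU1-4 and RNVU1-14, -15, -19, -28 and -29. Their regions and that of the pseudogene were 1012 to 1321 bp wide in replicate 2 and 581 to 1263 bp in replicate 1, although a U1 RNA itself is short. RNU1-3 had the highest fold enrichment of the 10 in replicate 2, at 16.6, and RNU1-4 the highest in replicate 1, at 17.4. Their median CpG observed to expected ratio was 0.69.

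The sequences of 9 of these 10 regions occur elsewhere in the genome almost unchanged. Over all broad regions, 51 had another place on the chromosomes with at least 95% identity over at least 80% of the width, which is 5.50% (4.12 to 7.17), against 3.51% of all shared peaks. Among regions without a protein-coding TSS the share was 23.9% (17.6 to 31.2), against 4.42% of all shared peaks of that kind, and among those over a protein-coding TSS it was 1.57%. How reads that fit several places were assigned is not given in the sources used here, so the values of these 51 regions are uncertain.

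Several gene families made up much of this group. All 3 FAM72 regions, 2 of them shared with SRGAP2 genes, were 1173 to 1212 bp wide in replicate 2 and 1213 to 1234 bp in replicate 1, and the 3 F8A genes of chromosome X were 1029 to 1177 and 1008 to 1062 bp wide. FAM86 genes and pseudogenes gave 5 regions of 1058 to 1200 bp, of which 4 had such copies, and FAM88 genes on chromosome 9 gave 3 of 1006 to 1061 bp. Between 70 and 72 Mb of chromosome 5, 5 regions without any gene start had 1004 to 1052 bp in replicate 2, 986 to 1069 bp in replicate 1 and fold enrichments of 13.5 to 18.5 and 14.5 to 20.1, and all 5 had near-identical copies. On the short arm of chromosome 21, 4 regions were 1254 to 1893 bp wide with low fold enrichments of 4.66 to 7.46, and 3 of them had such copies.

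The region of 7223 bp, chr1:628720-635942, was the widest in both lists, with 4334 bp in replicate 1, and it covered pseudogenes of mitochondrial origin such as MTND1P23, MTND2P28 and MTCO1P12. Its sequence matched mitochondrial DNA, and its fold enrichments were 4.56 in replicate 2 and 4.64 in replicate 1. The −log10 q at its summit was 94367 in replicate 2 and 150306 in replicate 1. How the mitochondrial reads were treated is not given in the sources used here. Such a match was found for 2 of the 927 regions, and without them the share over a protein-coding TSS was 82.6%.

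The 99 regions that covered no canonical start of any gene were divided by their CpG content at a ratio of 0.6. This limit was set for description, and ratios ran up to 0.585 just below it. In 61 of them the CpG observed to expected ratio was at least 0.6, or 61.6%, against 24.7% of all shared peaks without a start. Of these 61, 33 covered the start of a further annotated transcript and 21 lay within 2 kb of a protein-coding TSS. None held the AP-1 word within 100 bp of the summit, which allows a share of up to 5.87% (Clopper-Pearson), and 5 held it anywhere. Examples are the region at chr6:21587082-21588563, 5188 bp from the TSS of SOX4, with 1482 bp in replicate 2 and 4 separate peaks of replicate 1 of which the widest was 423 bp, and the region at chr6:127515527-127516961 in SOGA3, with 1435 and 1404 bp.

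The other 38 regions were poor in CpG, and most lay far from promoters. Their median distance to a protein-coding TSS was 50.2 kb, and 30 of the 38 lay more than 10 kb away. The start of a further annotated transcript was covered by 4 of them. The AP-1 word was within 100 bp of the summit in 11 of them, or 28.9% (15.4 to 45.9), beside 37.7% of all shared peaks without a start and with a ratio under 0.6, and anywhere in the region in 22. Their median width was 1088 bp in replicate 2 and 920 bp in replicate 1, with median fold enrichments of 9.42 and 8.49. Such regions are rare, since 0.304% of the 12509 shared peaks of that kind were 1000 bp or wider, against 1.49% of the 4098 with a ratio of at least 0.6.

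The summit windows of the 4 widest of the 11, chosen after the data were seen, show the AP-1 word in capitals against a background with few CpG. They lie at chr1:32703586-32703786 in SYNC, chr10:124152265-124152465 near CHST15, chr11:18383814-18384014 near LDHA and chr5:125485200-125485400 near ZNF608.
SYNC: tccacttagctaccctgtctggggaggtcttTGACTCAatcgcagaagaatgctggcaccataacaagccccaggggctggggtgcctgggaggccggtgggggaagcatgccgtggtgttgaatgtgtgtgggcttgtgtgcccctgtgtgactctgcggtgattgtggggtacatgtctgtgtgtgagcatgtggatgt
near CHST15: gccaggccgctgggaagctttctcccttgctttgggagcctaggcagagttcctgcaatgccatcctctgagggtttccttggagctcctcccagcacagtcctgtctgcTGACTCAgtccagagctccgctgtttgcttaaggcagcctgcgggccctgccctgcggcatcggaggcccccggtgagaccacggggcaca
near LDHA: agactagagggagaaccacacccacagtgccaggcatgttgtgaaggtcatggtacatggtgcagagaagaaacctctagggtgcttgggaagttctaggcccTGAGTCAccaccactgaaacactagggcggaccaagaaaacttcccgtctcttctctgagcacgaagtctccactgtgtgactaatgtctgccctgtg
near ZNF608: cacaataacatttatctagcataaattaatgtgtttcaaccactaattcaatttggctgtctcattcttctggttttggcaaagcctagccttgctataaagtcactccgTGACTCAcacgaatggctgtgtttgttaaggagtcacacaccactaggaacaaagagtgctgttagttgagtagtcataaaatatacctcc
The word is TGACTCA in 3 of the windows and TGAGTCA in the window near LDHA, and each window holds it once. The region in SYNC covered the start of a further annotated transcript and lay 88 bp from the canonical SYNC TSS. It was 638 bp wide in replicate 1. The region near LDHA lay 9928 bp from its TSS and spanned 1267 bp in replicate 2 and 1223 bp in replicate 1, with fold enrichments of 12.5 and 12.0. The one near CHST15 spanned 1268 and 1227 bp, with 9.50 and 11.4. The region near ZNF608 lay 737641 bp from the nearest protein-coding TSS and was narrower in replicate 1, at 899 bp.

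Tandem repeats made up 3 of the 927 regions, or 0.324%, against 0.711% of all shared peaks, counting a region where at least 60% of its bases equal the base at a fixed step further on. The region at chr5:1327059-1328534 in CLPTM1L spanned 1476 and 1521 bp, and 91.4% of its bases were repeated 29 bp further on. Another, at chr2:739913-740929, had a step of 189 bp and covered the start of the lncRNA LINC01115.

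The broad regions were unevenly spread over the chromosomes. Of the 8370 shared peaks over a protein-coding TSS, 764 or 9.13% were broad. The share was 16.0% on chromosome 5 (12.9 to 19.6), 15.8% on chromosome 4, 14.0% on chromosome 8 and 11.4% on chromosome 3. It was 1.34% on chromosome 19, which is 5 of 374, and 0 of 125 on chromosome 22, which allows a share of up to 2.91% (Clopper-Pearson). Without chromosome 5 the share over all TSS peaks of the other chromosomes was 8.70%. Within chromosome 5 it was 17.1% from 80 Mb on and 13.8% below. At these extremes the depth moved with the share. In replicates 1 and 2 the median TSS peak had 67 and 64 fragments at its summit on chromosome 5. It had 37 and 37 on chromosome 19 and 35 and 35 on chromosome 22. Chromosomes of like depth also differed, with 54 and 52 fragments and a share of 7.46% on chromosome 14. Chromosome 8 had 56 and 51 fragments and its share of 14.0%.

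Among TSS peaks of 50 to 99 fragments at the summit in replicate 1, 12.4% were broad over all chromosomes. On chromosome 5 the share was then 13.2% (8.91 to 18.7), on chromosome 4 it was 19.9% and on chromosome 8 it was 20.8%. On chromosome 19 it was 5.26% (1.73 to 11.9) of 95 peaks and on chromosome 22 it was 0 of 27. The part of depth in these shares was otherwise not tested.

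**Figure D5:**
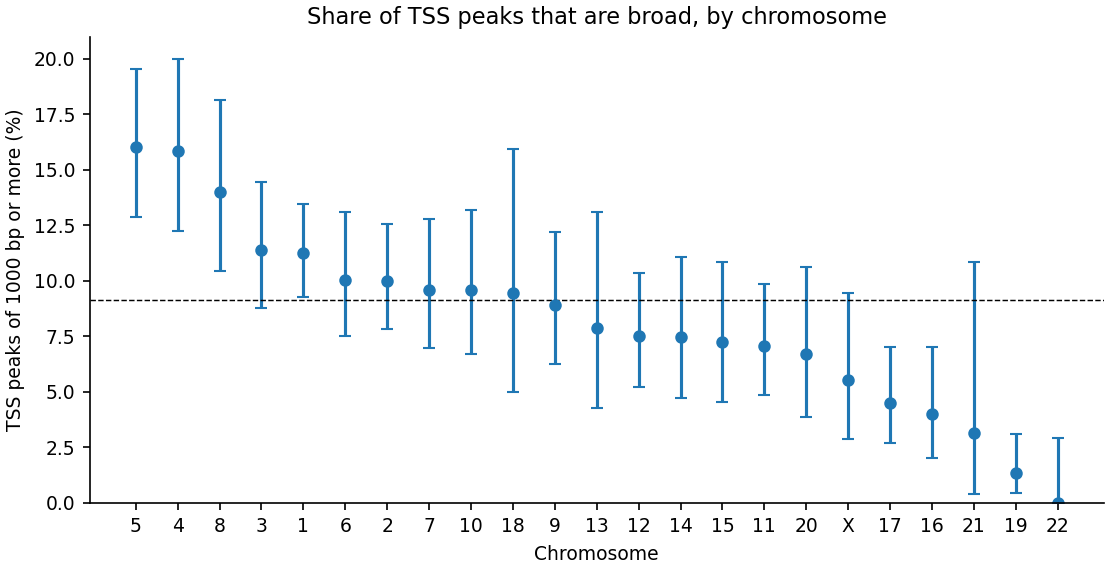
Points give, for each chromosome (horizontal, in order of the share), the share of shared peaks over a protein-coding TSS that were 1000 bp or wider in replicate 2 (vertical, percent), with 95% Clopper-Pearson intervals and a dashed line at the 9.13% of all chromosomes. Chromosomes 5, 4, 8 and 1 lie above the line with their whole intervals, and chromosomes 17, 16, 19 and 22 lie below it.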

How the data were processed

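Both samples were untreated B2B cells measured by ATAC-seq. According to the submitters' processing notes and the study's methods, the authors aligned reads to hg38 (Bowtie2 2.4.4, SAMtools 1.13), removed duplicates and called peaks with MACS2 2.2.7.1, here taken as 1 call for each sample. For every peak the deposited lists give a fold enrichment, which is a linear ratio, and the −log10 of the p and q values at its summit. The deposited score was not used. The Tn5 shift, the handling of multi-mapping reads and the q limit are not given in the sources used here. The lists hold no read totals. Depth was therefore read from the fragments at each summit, solved from fold enrichment and −log10 p to within 0.01, which succeeded for 99.9% of the peaks in either list.

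A shared peak overlaps a peak of replicate 1 by 1 bp or more. Canonical TSSs were those of GENCODE 44, sequences those of hg38, and older symbols were matched through RefSeq. Near-identical copies and mitochondrial matches came from BLAST 2.17.0 (E-value 1e-10 or lower). Shares carry 95% Clopper-Pearson intervals (scipy 1.17.1, Python 3.11.15). The overlap, word search, CpG ratio and fragment steps were tested on simulated data.

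The regions and gene lists were chosen with earlier results of these data known. The rule for names took the 8 widest regions, the 5 widest without a TSS, the 5 with the most protein-coding TSSs, the 3 widest and 3 narrowest in replicate 1, the 3 nearest to the limit on each side, list genes in broad regions, and the 8 widest over study oncogenes. Other genes and families were named after their values were seen. Alternatives were other width limits, a −log10 q of 5 or more, 50% coverage by replicate 1, each replicate on its own, other TSS rules and other search windows. A few items that these rules select are not reported here.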

Additional observations from a re-analysis of the deposited data

Results flagged for a closer look

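Outside chromosomes 1 to 22 and X, on the mitochondrial sequence and on unplaced or other sequences that the width rule left out, 8 peaks of replicate 2 and 9 peaks of replicate 1 were 1000 bp or wider. They are listed because they lie in data that the comparisons did not use. Their place in the genome was not analysed further.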

How the results depend on the processing

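Of 70 recomputed values of 8 results, 21 moved and 49 did not, and none turned round. A share counted as moved outside its 95% interval, a median by more than the SD between the replicates, and the number of regions by more than 1.5 times. The number of regions was 927 without replicate 1, and 782 peaks reached the limit without replicate 2. With a width limit of 800 bp there were 2565 regions, of which 59.0% reached that limit in replicate 1, 21.5% held more than 1 peak of replicate 1 and 79.8% covered a protein-coding TSS, with a median replicate 1 width of 854 bp and fold enrichment of 11.0. With a limit of 1500 bp there were 32 regions, and the same values were 59.4% for the width in replicate 1, 37.5% for more than 1 peak, 1542 bp and 8.29, with the AP-1 word at 0%. The share over a TSS was 87.8% with any annotated protein-coding transcript, 85.1% with a TSS within 1 kb and 85.8% without regions with a near-identical copy, an alternative chosen after seeing the data. The AP-1 word was in 10.5% of the regions anywhere and in 1.51% within 50 bp of the summit. Where replicate 1 covered at least 50% of the region the median fold enrichment was 10.9. With either replicate left out, the share over a TSS ran from 82.4% to 85.2%, the median CpG ratio from 0.83 to 0.84 and the median fold enrichment of replicate 1 was 11.3 without replicate 2. Results that need both replicates have no value without either one. No paired analysis was possible because both samples belong to 1 group. The lists hold no stretch below the calling limit, so depth limits how far a region could be seen to reach.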
